A study of Mus musculus with 7 samples.

Results

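Noncoding RNAs of 5 genes were described across mouse adrenal gland libraries: Malat1, Neat1, Rn7sk, Rn7s1 and Rn7s2. They are 5 of the 35976 gene symbols in the deposited table of normalized counts, and all 5 were found there and passed the filter used for testing (mean normalized count of 10 or more). The set was chosen on measured values, because its members together took several percent of the reads of the adult libraries, so their levels and every step to 12 weeks are given as descriptions with no test. RNA sequencing of total RNA from whole glands had been made from 7 pools of C57BL/6J mice: 1 embryonic pool at E18.5 of undetermined sex (40 glands), a male (16 glands) and a female (22 glands) pool on postnatal day 1 (P1), and 1 pool of each sex at 2 weeks (6 glands each) and at 12 weeks (4 glands each). No treatment or altered allele was recorded for any pool. Each group was thus 1 library, with no replicate, so the spread between animals within a group is unknown.

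Malat1 and Neat1 are long RNAs that stay in the nucleus. Malat1 is concentrated in nuclear speckles, where splicing factors are stored, and Neat1 is the scaffold of paraspeckles, bodies that hold RNA-binding proteins such as Sfpq and Nono. Rn7sk encodes 7SK RNA, a short nuclear RNA made by RNA polymerase III that keeps the elongation kinase P-TEFb inactive together with Hexim1 and Larp7. Rn7s1 and Rn7s2 encode 7SL RNA, also made by RNA polymerase III, which is the RNA of the signal recognition particle that brings ribosomes making secreted and membrane proteins to the endoplasmic reticulum. All are found in most tissues. The adrenal cortex makes steroid hormones and the medulla makes catecholamines, and no role particular to this gland is assumed for them here.

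By GENCODE M21 on GRCm38, Malat1 is a long intergenic noncoding RNA gene at chr19:5795690-5802672 on the minus strand with a transcript of 6983 bases. Neat1 lies on the same strand at chr19:5824708-5845478, with a long transcript of 20771 bases and a short one of 3004 bases that the single Neat1 value does not separate. Rn7sk (331 bases) lies at chr9:78175303-78175633 on the minus strand, Rn7s1 (300 bases) at chr12:69159295-69159594 on the plus strand and Rn7s2 (300 bases) at chr12:69361182-69361481 on the minus strand. The annotation also places other genes over the members. On the same strand, Gm27694 overlaps Malat1, 3 genes overlap Neat1, and 2 genes overlap each of Rn7s1 and Rn7s2. Gm37376 overlaps Malat1 on the opposite strand. None of these genes has a row in the table, so reads from them cannot be told apart from those of the members. For Gm37376 this is because strand use in counting is not given in the sources used here.

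The 7SL genes were identical at 300 of 300 positions, so a read lying within them cannot be assigned to 1 of the 2 by sequence.
The first 110 bases of 7SK are shown because they hold the 5′ region to which Hexim proteins bind, and capitals mark GATC, a motif known in that binding.
Rn7sk, bases 1 to 110: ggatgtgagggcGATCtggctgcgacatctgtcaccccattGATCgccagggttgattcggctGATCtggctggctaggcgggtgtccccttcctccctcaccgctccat
GATC was present at 3 positions, starting at 13, 42 and 64. GATC is its own reverse complement, so 1 search covers both strands. Of 138029 GENCODE transcripts with that many bases, 25.5% held GATC at least once in their first 110 bases and 0.427% at least 3 times.
Malat1 and the long form of Neat1 lack an ordinary poly(A) tail and end in a triple-stranded structure in which U-rich stretches pair with an A-rich 3′ end. The stretches below are shown because these unrelated transcripts share its letters, and capitals mark the 11-base AAAAAGCAAAA and the 10-base TTTTGCTTTT, the reverse complement of its last 10 bases.
Malat1, bases 6582 to 6691: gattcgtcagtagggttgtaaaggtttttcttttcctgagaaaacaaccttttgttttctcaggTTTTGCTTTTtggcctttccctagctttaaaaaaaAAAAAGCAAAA
Neat1, bases 20662 to 20771: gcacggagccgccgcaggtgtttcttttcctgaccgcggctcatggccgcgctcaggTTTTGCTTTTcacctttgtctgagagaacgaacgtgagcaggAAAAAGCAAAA
In the Malat1 model 292 annotated bases follow the stretch, and in Neat1 it is the annotated end. Searched on the transcribed strand, both letters in this arrangement within 110 bases occurred in 3 of 55341 annotated genes, namely Malat1, Neat1 and Retreg3.

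Sequence shared with other genes differed between the members. Every 50-base window of Rn7s1 and Rn7s2 (100%) was found exactly in an annotated transcript of another gene, as were 68.1% of the windows of Rn7sk. For Malat1 the share was 6.36% and for Neat1 1.37%. These shares include genes annotated over the same place. The gene sharing most windows was Gm37376 for Malat1 and Gm27533 for Neat1, and each overlaps that member. Such windows need not match a second place in the genome. How reads that match several places were counted is not given in the sources used here, so the values of the short RNAs, and above all the division of 7SL reads between Rn7s1 and Rn7s2, are uncertain, and the sum of both is given beside them.

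Several library-wide facts bear on the values. Libraries held 15184210 to 23551289 reads assigned to genes, and the 10 most abundant genes took 10.5% to 19.6% of them. All 8 adrenal cortex markers and all 7 chromaffin cell markers had reads in every library. The library labelled P1 female held Y-linked transcripts at a median of 21.02% of the level in the P1 male library over 4 genes, against 0.0609% at 2 weeks and 0.0132% at 12 weeks, and the members' tested differences are given with and without it. Markers of neighbouring tissues also changed between P1 and 2 weeks: in the limma fit over 6 libraries described below, 7 of 7 liver, 7 of 7 skeletal muscle and 7 of 7 kidney markers were lower at 2 weeks and 7 of 7 adipocyte markers were higher (adjusted p under 0.05). In the fit that leaves out P1 females, 2 liver, 0 muscle, 1 kidney and 5 adipocyte markers were called, with all 7 of each list in the same direction. The summed liver markers were 245842 to 355235 normalized counts at P1, 12812 to 33518 at 2 weeks and 421 to 433 at 12 weeks. Muscle markers summed to 77101 and 140618 at P1, 165 and 5083 at 2 weeks, and 64.5 and 67.1 at 12 weeks. Kidney markers summed to 8920 and 2456 at P1 and to at most 65.8 later, and adipocyte markers to 2915 and 3075 at P1 and 27904 to 49425 later. Exocrine pancreas markers summed to 21.8 at E18.5, 3427 in P1 males, 62.9 in P1 females and at most 3.39 later. Of the 6 tested, 3 were called lower at 2 weeks. Values given without the library labelled P1 female rest on that P1 male pool. Of the 7 kidney markers 6, of the adipocyte markers 1 and of the exocrine pancreas markers 7 were at 0 in at least 1 library. The part of these neighbouring tissues in the members' values was not tested. In bulk samples, a change in the number of cells of a type and a change of RNA per cell cannot be told apart.

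Together the members took 3.19% of reads at E18.5, 2.23% in P1 males, 3.89% in P1 females, 3.36% in males and 4.08% in females at 2 weeks, and 9.40% in males and 6.34% in females at 12 weeks. The 12-week values were the reason for the choice of members. Wilson 95% intervals, which cover counting error only, ran from 9.39% to 9.42% for the 12-week male library and from 2.22% to 2.23% for the P1 male library. Rn7sk was the largest part in every library and had the highest or second highest read count of all genes in each (place 1 or 2). Malat1 stood between places 3 and 19, Rn7s1 between 5 and 32 and Rn7s2 between 6 and 91. Neat1, by contrast, stood between places 478 and 5073 and reached at most 0.0251% of reads, so the word abundant fits the other members but not Neat1.

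**Figure D1:**
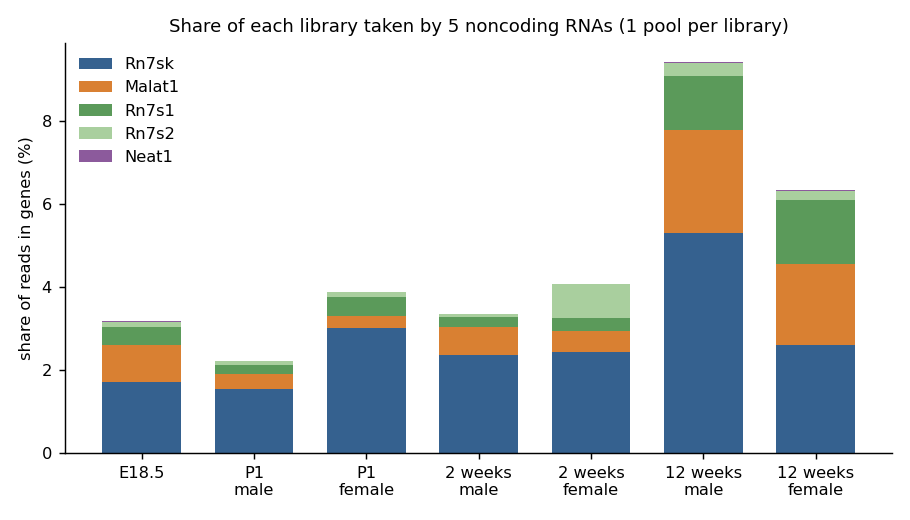
Stacked bars give the percentage of each library's gene-assigned reads taken by Rn7sk, Malat1, Rn7s1, Rn7s2 and Neat1, for 7 libraries of 1 pool each. The bars reach 9.40% and 6.34% in the 12-week male and female libraries and 2.23% to 4.08% in the others, and Neat1 is barely visible.

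Per kilobase of transcript, Rn7sk, Rn7s1 and Rn7s2 stood above Malat1 in every library. Rn7sk lay at 903331 to 3393490 normalized counts per kilobase, Rn7s1 at 143223 to 1105396 and Malat1 at 8201 to 75344. Neat1, set against its long form, lay at 39.3 to 264 normalized counts per kilobase, the lowest level of the 5 in every library.

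At E18.5 Malat1 stood at 169602 normalized counts. It stood at 69614 in P1 males, 57267 in P1 females, 125664 and 102492 in males and females at 2 weeks, and 526125 and 427350 at 12 weeks. A normalized count is the number of reads the authors counted, scaled by a single size factor for the library. The P1 libraries were the lowest and the 12-week libraries the highest, with E18.5 between the 2-week and 12-week pairs, and the sexes of 1 age did not overlap those of another. At each age the male library was the higher one, by 1.22-fold at P1 and 1.23-fold at 2 weeks and at 12 weeks. From P1 to 2 weeks Malat1 was 1.81-fold higher in males and 1.79-fold higher in females, and from 2 to 12 weeks 4.19-fold and 4.17-fold higher. From E18.5 to P1 it was 2.44-fold lower in males and 2.96-fold lower in the library labelled P1 female. No neighbouring pair in the order of its levels had overlapping 95% counting intervals, but these intervals leave out the spread between animals.

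Neat1 gave 4711 normalized counts in the embryonic library, 2477 in P1 males, 817 in P1 females, 1685 in males and 3016 in females at 2 weeks, and 4393 in males and 5489 in females at 12 weeks. Its lowest library was P1 female and its highest 12-week female, 6.72-fold apart. Unlike Malat1, the libraries of different ages overlapped: P1 males lay between the 2-week sexes, and E18.5 lay between the 12-week sexes. The male library was 3.03-fold higher at P1, and the female library was 1.79-fold higher at 2 weeks and 1.25-fold higher at 12 weeks. Without the library labelled P1 female, the range ran from 1685 to 5489. The ratio of Malat1 to Neat1 reads ran from 28.1 in P1 males to 119.8 in 12-week males, so these neighbouring genes were not in a fixed proportion.

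The embryonic library held 330251 normalized counts of Rn7sk. The others held 299002 in P1 males, 616932 in P1 females, 444958 and 475531 in males and females at 2 weeks, and 1123245 in males and 569175 in females at 12 weeks. The 12-week male library stood highest, and the P1 female library stood second, above 12-week females. Between the sexes, Rn7sk was 2.06-fold higher in the female library at P1, 1.07-fold higher in the female library at 2 weeks and 1.97-fold higher in the male library at 12 weeks. From 2 to 12 weeks the male libraries differed 2.52-fold and the female libraries 1.20-fold. Without the library labelled P1 female the other early libraries ran from 299002 to 475531, all below both 12-week values.

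**Figure D2:**
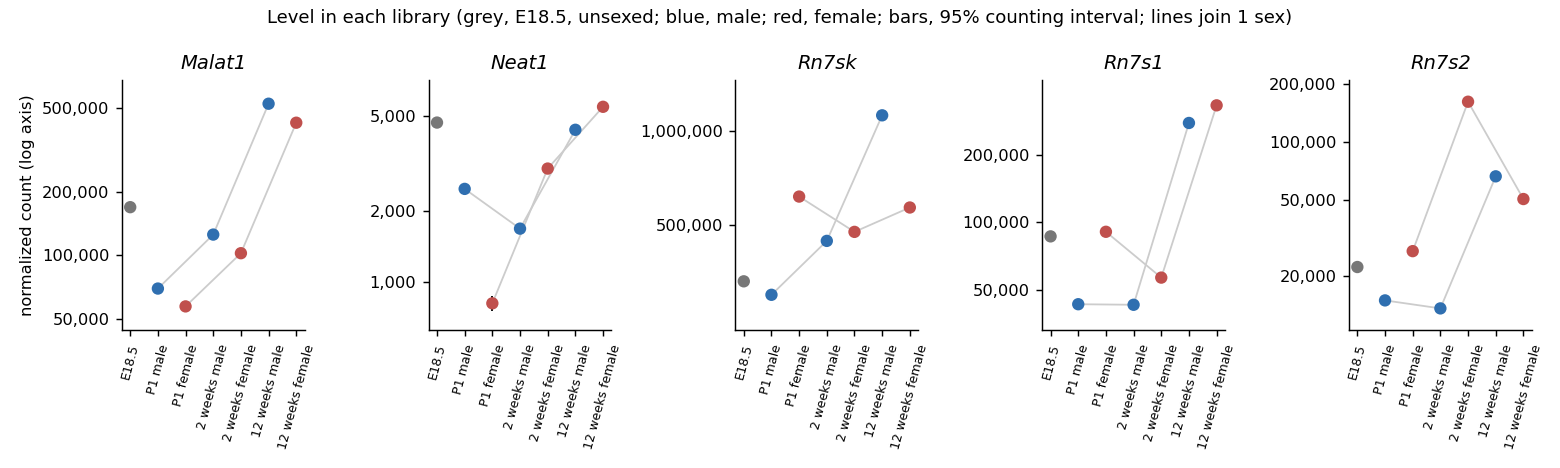
Each panel gives 1 RNA's normalized count (log axis) in the 7 libraries, with grey for E18.5, blue for male and red for female pools, 95% counting intervals as bars and lines joining the libraries of 1 sex. Malat1 runs in parallel in both sexes, Rn7sk is highest in 12-week males at 1123245, and Rn7s2 is highest in 2-week females at 161019.

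Other structural short RNAs were set beside Rn7sk. The list held 8 such RNAs with a row: Rpph1 and Rmrp (the RNAs of RNase P and RNase MRP), Rnu11 and Rnu12 (small nuclear RNAs of the minor spliceosome), the Y RNAs Rny1 and Rny3, the vault RNA Vaultrc5 and the telomerase RNA Terc. At 12 weeks 7 of the 8 were higher in the male library and 6 of them at least 2-fold, with a median log2 ratio of 1.09. Over all genes tested, 8.83% were at least 2-fold apart in either direction between these libraries, with a median log2 ratio of 0.02. At that age Rpph1 reached 146520 normalized counts in the male pool and 71564 in the female pool, a ratio of 2.05, and Rnu12 reached 3500 and 1163, a ratio of 3.01. At P1, 6 of the 8 were higher in the female library. Rpph1 was 2.17-fold, Rnu11 2.25-fold and Rnu12 2.62-fold higher there, beside 2.06-fold for Rn7sk. Rmrp was 1.55-fold, Rny1 1.46-fold and Terc 1.36-fold higher. Vaultrc5 and Rny3 were lower there, with female over male ratios of 0.97 and 0.57. These ratios rest on the library labelled P1 female, which held Y-linked transcripts. Terc was the exception at 12 weeks, with 71.3 in males and 154 in females.

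Larger classes of short RNAs differed between the 12-week libraries as well. Reads of 114 small nucleolar RNA symbols summed to 21022 in the 12-week male pool and 10316 in the female pool (normalized counts), and to 4178 to 6335 elsewhere. Those of 16 Rnu symbols summed to 64268 and 33541 at 12 weeks. The 9 Scarna symbols (RNAs of Cajal bodies) went the other way, with 4269 in males and 6289 in females at that age. Erythroid markers were higher in 12-week males in 7 of 7 genes, with sums of 13187 and 5477. At P1 they summed to 64687 in males and 61897 in females. Other lists differed in direction at 12 weeks. The male library was higher in 5 of 7 macrophage and 5 of 6 endothelium markers. It was higher in 2 of 8 adrenal cortex markers, 2 of 7 chromaffin cell markers and 0 of 13 mitochondrially encoded RNAs. The part of these library-wide differences in the Rn7sk values was not tested. Over the 7 libraries, the Pearson r of the log2 level of Rn7sk was 0.95 with Rnu12, 0.90 with Rny1, 0.88 with Rpph1, 0.87 with Rnu11, 0.74 with Vaultrc5, 0.70 with Rmrp, 0.63 with Rny3 and -0.05 with Terc. It was 0.59 with Malat1 and 0.05 with Neat1. The rank correlation (Spearman) ran from 0.93 with Rnu11 to 0.07 with Terc, with Rmrp and Vaultrc5 at 0.46 and Rny3 at 0.25, so the order of libraries was close to that of Rn7sk for some of the list and not for others. These are descriptions over 7 points that share their libraries, depth and scaling.

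**Figure D3:**
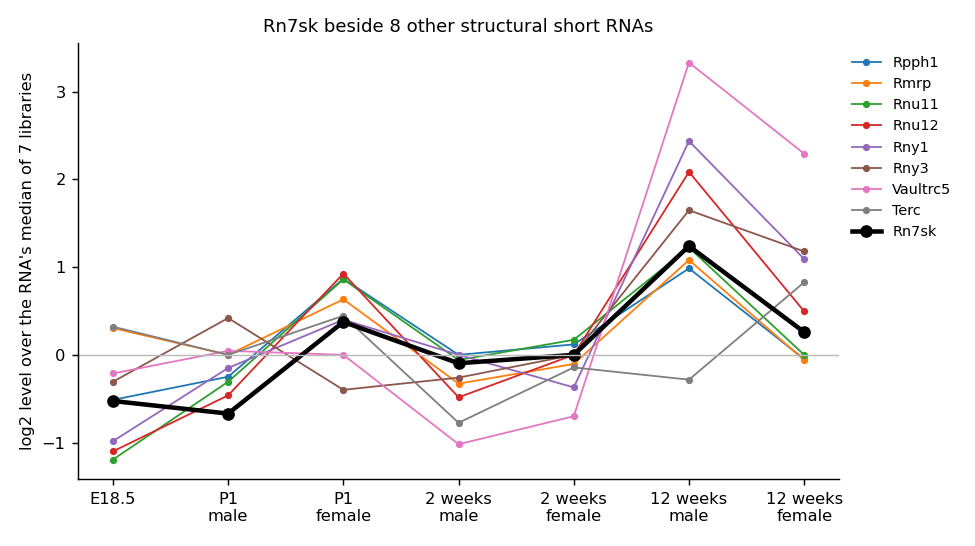
The log2 level of Rn7sk (thick black line) and of 8 other structural short RNAs in each of 7 libraries is given relative to that RNA's own median, and lines join the values of 1 RNA. Most lines, that of Rn7sk among them, stand higher in 12-week males than in 12-week females, and Terc does not.

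The level of Rn7s1 was 86598 normalized counts before birth, 43213 in P1 males, 90768 in P1 females, 42967 in males and 56761 in females at 2 weeks, and 276803 in males and 331619 in females at 12 weeks. Both 12-week libraries stood above all others. The 2-week male and P1 male libraries were the only neighbours in the order of any member whose counting intervals overlapped. The 12-week values were 6.44-fold those at 2 weeks in males and 5.84-fold in females.

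For Rn7s2 the embryonic library gave 22384 normalized counts, and the postnatal ones gave 15027 in P1 males, 27053 in P1 females, 13658 in males and 161019 in females at 2 weeks, and 66075 in males and 50394 in females at 12 weeks. The 2-week female library stood above all the others, 11.8-fold over 2-week males. Of the reads of both 7SL rows, Rn7s2 took 73.9% in that library (Wilson 95% interval 73.8% to 74.1%) and 13.2% to 25.8% in the other 6. The annotated sequences of both rows are identical.

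The 7SL sum was 108982 normalized counts before birth, 58239 in P1 males, 117822 in P1 females, 56625 in males and 217779 in females at 2 weeks, and 342878 in males and 382013 in females at 12 weeks. The 12-week libraries were again the highest, and the 2-week female library came next. The sum was 6.06-fold higher at 12 than at 2 weeks in males and 1.75-fold in females. Another noncoding gene, LOC101056014 (AY036118 by its gene number in RefSeq for GRCm38.p6), also differed strongly between these libraries and was singled out after its values were seen. It took 2.57% of reads in P1 females and 2.39% in 2-week females, and 0.00764% to 0.279% in the other 5. The Rn7s2 share of 7SL reads in the P1 female library was 23.0%. Over the 7 libraries, the Pearson r of the log2 levels of Rn7s2 and LOC101056014 was 0.56. Any link between them was not tested.

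**Figure D4:**
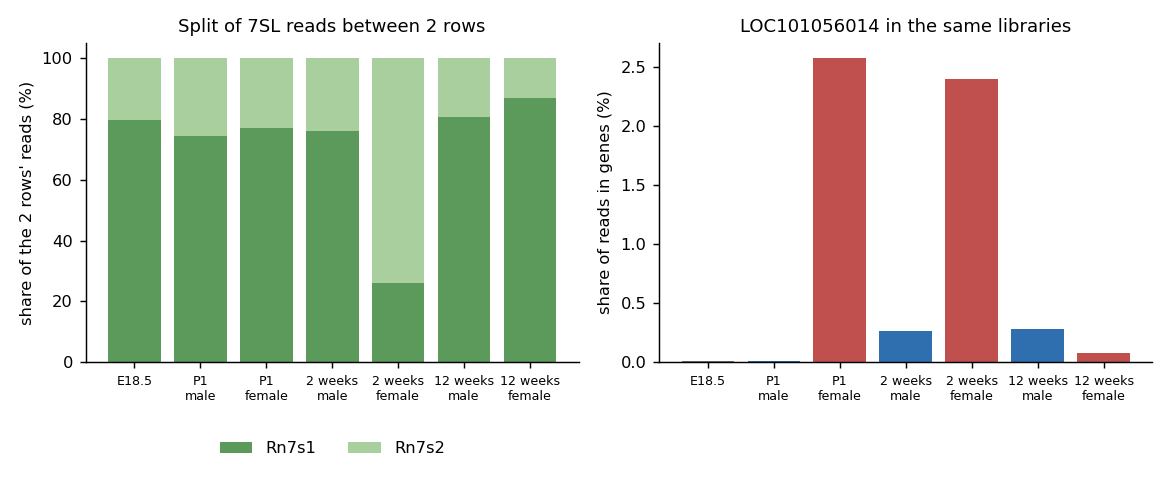
The left panel splits the reads of the 2 identical 7SL rows into Rn7s1 and Rn7s2 (%), and the right panel gives the share of all gene-assigned reads (%) taken by LOC101056014 in the same 7 libraries (blue male, red female). Rn7s2 takes 73.9% of 7SL reads in 2-week females and at most 25.8% elsewhere, while LOC101056014 is high in both P1 and 2-week females.

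Counts of members at least 2-fold apart between single libraries were set beside the same share over all 16720 genes tested. From E18.5 to P1, 2 members were lower in males (Malat1 and Rn7s1), where 3.5% of all genes were, and 2 were lower in the library labelled P1 female (Malat1 and Neat1), where 6.12% were. From 2 to 12 weeks, all 5 members were at least 2-fold higher in males, where 9.59% of genes were. In females 2 were (Malat1 and Rn7s1), where 7.17% of genes were, and Rn7s2 was 3.20-fold lower. Because the members were chosen for their 12-week level, nothing is read from these last counts. Between the sexes, 3 members were at least 2-fold apart at P1 (Neat1, Rn7sk and Rn7s1), where 6.78% of genes were. At 2 weeks 1 member was (Rn7s2), where 4.24% of genes were, and at 12 weeks 0 members were, where 8.83% of genes were. The median log2 ratio over all genes tested ran from -0.035 to 0.045 over these steps. Some of the counts between the sexes depend on the scaling. With equal column totals, the male over female log2 ratios at P1 were -0.96 for Rn7sk and -0.99 for Rn7s1, under the 2-fold mark. That of Rn7sk at 12 weeks was then 1.02, over the mark.

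A sex difference was tested by limma over the 6 libraries from after birth, blocked by age, on log2(normalized count + 1) with Benjamini-Hochberg adjustment. Without replicate pools, its p-values rest on how far the 3 pairs of pools differ among themselves. That spread is drawn for each gene towards the spread of other genes of like level. The male over female log2 ratios of Malat1 were 0.28, 0.29 and 0.30, so its SE below comes mostly from the spread of other genes. The fit uses the 12-week values, whose sum over the members set the choice of members. With either 12-week library left out, the other is fitted exactly and adds nothing to the difference or its spread. Of the members 0 of 5 were called, where 0.00598% of all genes tested were (1 gene, Xist), and 0 of 5 had an unadjusted p under 0.05, where 521 genes did. By edgeR on the recovered reads 0 of 5 members were called as well. The male minus female log2 difference of Malat1 was 0.29 ± 0.23 (SE), with the male library higher at 3 of 3 ages (limma, adjusted p = 0.999), and 0.30 without the library labelled P1 female. With either 12-week library left out the differences were 0.29 for Malat1, 0.38 for Neat1, -0.57 for Rn7sk and -0.74 for Rn7s1, and none of these 4 was called by limma (adjusted p of 0.727 or above). That of Neat1 was 0.15 ± 0.42 and that of Rn7sk -0.05 ± 0.48, and both change sign without the library labelled P1 female, to -0.58 and 0.44. That of Rn7s1 was -0.58 ± 0.25, with the female library higher at 3 of 3 ages, and was -0.33 without either the male or the female P1 library. That of Rn7s2 was -1.34 ± 0.66, with the female library higher at 2 of 3 ages, and -1.58 without the library labelled P1 female. The Rn7s2 value was -0.23 without the 2-week female library and was called only without either 12-week library (-2.20, adjusted p = 0.0282 without the male and 0.0281 without the female one). The 7SL sum differed by -1.04 ± 0.37 (unadjusted p = 0.0272 and adjusted p = 0.999 by limma), and by -1.05 without the library labelled P1 female.

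The step from P1 to 2 weeks was tested in the same limma fit. With all 6 libraries, its log2 difference does not use the 12-week levels by which the members were chosen. The spread behind its p-values does use them. With a P1 or 2-week library left out, the difference also draws on the 12-week levels, through the sex term of the fit. Of the members 0 of 5 were called in either direction, where 5.89% of all genes tested were called higher at 2 weeks and 10.5% lower, 2737 genes in all, and 28 without the library labelled P1 female. By edgeR 0 of 5 members were called as well. Malat1 had a log2 difference of 0.85 ± 0.29, higher in 2 of 2 sexes, and the only member's unadjusted p under 0.05 (limma, 0.0226, adjusted p = 0.0950). Without the library labelled P1 female its value was 0.85 with an adjusted p of 0.512 by limma, and it was called only in the limma fit without a trend (adjusted p = 0.0495). Neat1 differed by 0.66 ± 0.52, and by -0.43 without the library labelled P1 female. Rn7sk differed by 0.10 ± 0.59, and by 0.84 without the library labelled P1 female, while the male libraries alone differed by 0.57. Rn7s1 differed by -0.34 ± 0.30, and by 0.027 without the library labelled P1 female. Rn7s2 differed by 1.22 ± 0.81, by 0.85 without the library labelled P1 female and by -0.45 without the 2-week female library. The male libraries alone differed by -0.14 in Rn7s2. Rn7s2 was called without either 12-week library, at the same log2 difference (adjusted p = 0.0372 and 0.0371 by limma). The 7SL sum differed by 0.42 ± 0.45 (adjusted p = 0.561 by limma), and by 0.41 without the library labelled P1 female. A p that misses the threshold does not show that levels were equal.

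**Figure D5:**
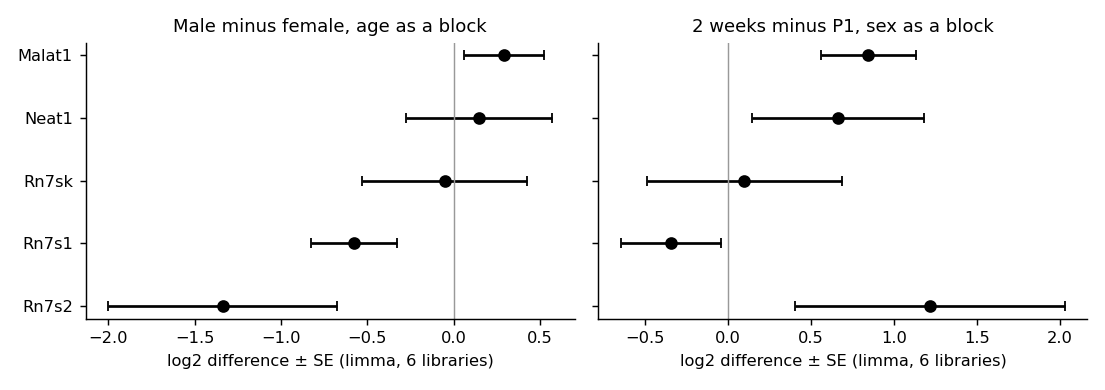
Points give the log2 difference of each RNA between male and female libraries (left) and between 2 weeks and P1 (right), and bars give ±1 SE from the limma fit over 6 libraries. No member passed an adjusted p of 0.05, and Rn7s2, at -1.34 and 1.22, has the widest bars.

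The protein partners of these RNAs were read from the same fit for the step from P1 to 2 weeks. The lists were chosen with earlier results of these data known. For 7SK, 0 of 7 genes of its particle and P-TEFb were called (median log2 difference 0.07, against 0.0026 over all genes tested). Hexim1, the P-TEFb inhibitor that binds 7SK, had 1144 and 911 normalized counts at P1 and 1502 and 1671 at 2 weeks in males and females (0.63 ± 0.19, adjusted p = 0.0729 by limma), and Ccnt1, a cyclin of P-TEFb, differed by 0.47 ± 0.23. For 7SL, 0 of 10 genes of the signal recognition particle and its receptor were called (median 0.12), with Srp68, a protein that binds 7SL, at -0.43 ± 0.16. Their summed level ran from 10875 to 13319 normalized counts over the 7 libraries, beside 56625 to 382013 for 7SL itself.

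For Neat1, the median log2 difference of the paraspeckle protein genes was 0.10. Sfpq, a core paraspeckle protein, differed by 0.33 ± 0.15 (adjusted p = 0.186 by limma). For Malat1, 0 of 10 genes of nuclear speckle proteins and Malat1 partners were called (median 0.26). Mettl16, which binds the Malat1 triple helix, differed by 0.77 ± 0.26 (adjusted p = 0.0925 by limma), and Srrm2, a scaffold of speckles, by -0.21 ± 0.18. Without the library labelled P1 female, the differences between P1 and 2 weeks were 0.56 for Hexim1, 0.80 for Ccnt1, -0.56 for Srp68, 0.41 for Sfpq, 1.24 for Mettl16 and 0.03 for Srrm2. From 2 to 12 weeks, 0 of the 10 genes of nuclear speckle proteins and Malat1 partners were at least 2-fold apart in either sex. In the lists of the signal recognition particle and of paraspeckle proteins, 1 gene each was at least 2-fold lower in males, and 0 were 2-fold apart in females.

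Of 30 genes of RNA polymerase III and its factors, 0 were called between P1 and 2 weeks (median 0.03) and 0 were at least 2-fold apart from 2 to 12 weeks in either sex. Their summed level lay between 24628 and 26545 normalized counts over the 7 libraries, while Rn7sk ran from 299002 to 1123245. Any relation between them was not tested, and a sum mostly follows its most abundant genes. Snapc3 of this list, singled out after its values were seen, was just under the 2-fold mark. From 2 to 12 weeks it was higher by 0.996 in males and 0.963 in females (log2), beside list medians of -0.04 and 0.03. Of the 8 other structural short RNAs, 0 were called between P1 and 2 weeks (median -0.39), and from 2 to 12 weeks 6 were at least 2-fold higher in males and 3 in females. Of 18 other long noncoding RNAs, 3 were called lower between P1 and 2 weeks and 0 higher (median -0.33). They were H19, the imprinted fetal RNA, and Rian and Mirg of the Dlk1-Dio3 imprinted region, and H19 fell by 4.86 on the log2 scale (SE 0.20, adjusted p = 0.000562 by limma). Without the library labelled P1 female, H19 alone of these 3 was still called (-5.18, adjusted p = 0.0344 by limma). Xist, the RNA of X inactivation, was the gene called for sex. Without that library it was 1 of 5 genes called. Also without it, the list medians for the step from P1 to 2 weeks were -0.01 for the signal recognition particle, 0.09 for speckle proteins, -0.06 for RNA polymerase III and 0.20 for the other structural short RNAs.

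The genes most like each member were taken as the 3 of highest Pearson r of log2(normalized count + 1) over the 7 libraries, among 12250 other genes whose mean normalized count was 100 or more. For Malat1 they were Tbrg3 (0.999), Luc7l2 (0.997), a splicing factor of the U1 particle, and 2310067E19Rik (0.993), and each had the libraries in the same order as Malat1. As many as 588 genes had an r over 0.9 with Malat1, against 134 for Neat1, 105 for Rn7s1, 79 for Rn7sk and 3 for Rn7s2. For Neat1 they were Avpi1 (0.989), Tma7 (0.989) and Unc50 (0.980), for Rn7sk Zfp300 (0.985), Nck1 (0.983) and Ccdc90b (0.982), for Rn7s1 Nlrc5 (0.983), Lonrf1 (0.983) and Ccnd2 (0.973), and for Rn7s2 Deb1 (0.979), Eps8l1 (0.944) and Ndufaf6 (0.925). Likeness over 7 single pools says nothing of shared function or control. Between members, r was 0.84 for Malat1 and Rn7s1, 0.78 for Malat1 and Neat1, and 0.41 for Rn7s1 and Rn7s2, whose sequences are identical.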

How the data were processed

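Whole-gland RNA from 7 pools, 1 per group, was analysed. The authors deposited 1 table of normalized counts (a signal in read units, on the scale of size factors). Per the submitters' processing notes, the tools were CASAVA 1.8.2, HISAT2 2.1.0, HTSeq 0.9.1 and DESeq2 2.11.40.6 on mm10, with no role or order given. The gene annotation, strand setting and treatment of reads matching several places are not given in the sources used here. Each column held whole multiples of 1 step, so reads were recovered: 100% of values lay within 0.01 of a whole read. The members and gene lists were chosen with earlier results of these data known.

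The 16720 genes whose mean normalized count was 10 or more entered a limma 3.58.1 model (R 4.3.3) of log2(normalized count + 1), with age and sex as additive terms over the 6 postnatal libraries, a trended eBayes prior and Benjamini-Hochberg adjustment, called at an adjusted p under 0.05. edgeR 4.0.16 (quasi-likelihood) on the recovered reads was an alternative. It called 0 genes for sex and 2795 between P1 and 2 weeks. The scripts were tested on simulated data. Libraries set singly against each other have exact counting intervals only. All 5 members are named, with at most 4 genes per partner list (smallest p or highest mean) and the 3 most like genes per member. Sequences and coordinates are from GENCODE M21 (GRCm38, the same assembly as mm10). Alternatives for the pseudocount, filter, scaling, trend, test and each left-out library were run, and the summing of Rn7s1 and Rn7s2 was added after seeing the data. A sequence and a gene of a partner list are not reported here.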

Additional observations from a re-analysis of the deposited data

Results flagged for a closer look

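For 3 of the RNAs, the male and female libraries stood in opposite order at different ages, with 1 library on each side, and the difference between ages was not tested. The log2 ratio of male over female Neat1 came to 1.60 in the P1 pools, -0.84 in the 2-week pools and -0.32 in the 12-week pools. For Rn7sk the ratio at P1 was -1.04, and it was -0.10 at 2 weeks and 0.98 at 12 weeks. For Rn7s2 the P1, 2-week and 12-week ratios were -0.85, -3.56 and 0.39. The P1 ratios rest on the library labelled P1 female, which held Y-linked transcripts, and without P1 the ratios of Neat1 have 1 sign while those of Rn7sk and Rn7s2 keep both signs.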

How the results depend on the processing

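Beyond the block by age in the sex test, no pairing by replicate could be added. Each group has 1 library, and the shared number 1 is only a name. Of 154 alternative values for the members' tests, 137 kept direction and side of the threshold, 5 became called (given with the results) and 12 reversed, and the cause was not tested. Leaving out 1 library gave values of -0.58 to 0.64 for Neat1 and -0.57 to 0.44 for Rn7sk for sex, and between P1 and 2 weeks -0.43 to 1.75 for Neat1, -0.64 to 0.84 for Rn7sk, -0.71 to 0.027 for Rn7s1 and -0.45 to 2.88 for Rn7s2. For sex, Neat1 became -0.58 without P1 males or without P1 females, and Rn7sk became 0.44 without either of these libraries, 0.0084 with equal column totals and 0.013 with equal totals over the other genes. Between P1 and 2 weeks, Rn7sk became -0.64 without P1 males, Neat1 -0.43 without P1 females and -0.08 without 2-week females, Rn7s1 0.027 without P1 females and 0.42 when summed with Rn7s2, and Rn7s2 -0.45 without 2-week females. For sex, limma called 0 genes with no filter (783 at an unadjusted p under 0.05) and 0 without a trend (638), edgeR called 0 (667), and leaving out 1 library gave 0 to 51. Between P1 and 2 weeks, 2737 genes were called by limma, 0 with no filter (6431 at an unadjusted p under 0.05) and 1672 without a trend. Leaving out 1 library gave 2 to 4461: 2 without P1 males, 28 without P1 females, 201 without 2-week males, 750 without 2-week females, 4461 without 12-week males and 4459 without 12-week females. Where 1 library of an age was left out, the lone one is adjusted by the sex difference at the other ages. It is also assumed to vary like the rest. Without mitochondrially encoded RNAs in the column sum, the members' share was 3.37% at E18.5, 2.37% and 4.10% in P1 males and females, 3.55% and 4.37% at 2 weeks, and 10.2% and 7.04% at 12 weeks. Without LOC101056014 it was 3.99% in P1 females, 3.37% and 4.18% at 2 weeks and 9.43% in 12-week males. Of 165 ratios of single libraries under other scalings, 117 moved beyond their counting interval. With equal column totals and with equal totals over the other genes, 4 changed sign, all of Rn7s1: P1 females over E18.5 went from 0.068 to -0.017 and -0.0061, and 2-week over P1 males from -0.0082 to 0.033 and 0.050. Equal column totals moved the steps from 2 to 12 weeks by -0.18 in males and -0.16 in females (log2). Counting intervals of the members are narrow at these depths, and the spread between animals is unknown.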

Other observations

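Snapc3, a subunit of the complex that recruits RNA polymerase III to genes such as Rn7sk, gave 1103 normalized counts in the embryonic library, 783 in P1 males, 634 in P1 females, 1068 and 948 in males and females at 2 weeks, and 2132 and 1850 at 12 weeks. It was singled out after its values were seen. Its r over the 7 libraries was 0.993 with Malat1, with the libraries in the same order, and 0.58 with Rn7sk. Kcnq1ot1, a long nuclear RNA of an imprinted region, stood at 11460 normalized counts before birth, 7118 and 4296 in P1 males and females, 10178 and 8748 at 2 weeks, and 20381 and 20869 at 12 weeks, with both 12-week libraries above all others as for Malat1. Its difference between P1 and 2 weeks was 0.77 ± 0.21 on the log2 scale (adjusted p = 0.0553 by limma), and 0.45 without the library labelled P1 female.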
